A study of Mus musculus with 4 samples.

Results

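Ppara and 9 further nuclear receptor genes of the liver were followed here across the arrays of a lipin overexpression experiment. The members were found by symbol: a probe set counted when the platform annotation gave it 1 gene symbol only and that symbol was Ppara, Rxra, Rxrb, Nr1h3, Nr1h4, Nr5a2, Nr0b2, Hnf4a, Esrra or Nr1i3. The 10 genes had 17 probe sets of the 22626 on the array that are not controls, and every gene had at least 1. Liver RNA came from grown male C57BL6 mice that had been given an adenovirus 6 days earlier. That virus encoded green fluorescent protein (GFP) in the control group and mouse lipin 1beta in the other, so the controls were infected too and uninfected liver is not analysed here. Each group had 2 arrays, from samples titled GFP control and Ad-lipin. The labels name neither the vector's promoter nor the animals behind each array, so p-values measure only sample spread, which may be technical. That spread was pooled in part over other probe sets of like signal, so it is not that of a probe set's own arrays alone.

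Nuclear receptors are transcription factors, most of them switched by small lipophilic ligands. PPAR alpha (Ppara) binds fatty acids and turns on their oxidation in the fasting liver, and it binds DNA as a heterodimer with a retinoid X receptor (Rxra, Rxrb). LXR alpha (Nr1h3), FXR (Nr1h4) and CAR (Nr1i3) use the same partner and respond to oxysterols, bile acids and xenobiotics. HNF4 alpha (Hnf4a), ERR alpha (Esrra) and LRH-1 (Nr5a2) bind DNA without that partner, and SHP (Nr0b2) lacks a DNA-binding domain and represses the others. Lipin 1 is an enzyme of glycerolipid synthesis that can also coactivate PPAR alpha together with PGC-1 alpha.

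Some properties of the arrays touch every value that follows. Lpin1 had 2 probe sets, and on both the highest signal was that of the array labelled lipin replicate 2 (6719 and 11087), while lipin replicate 1 (2261 and 3854) lay within or below the GFP arrays (1430 to 2730, and 4632 to 7082). Groups are therefore named by their labels. GFP replicate 2 had the highest ratio of 3' to 5' signal, a sign of RNA degradation, for beta-actin (4.22, against 1.77 to 2.86 on the other arrays) and for Gapdh (2.01, against 1.52 to 1.78). The label of lipin replicate 2 says polyA RNA, and those of the rest say total RNA. Hepatocyte genes were bright on every array: the summed signal of 8 markers came to 1513400 and 3048000 with GFP, against 2098100 and 2569700 on the arrays labelled lipin, with 2 markers higher in both of the latter and 0 lower. Of 8 T and NK cell markers 4 were too dim to test, and the summed signals of all 8 were 5097 and 5144 against 4799 and 3638. The sums of 8 Kupffer cell and macrophage markers were 49252 and 28308 against 44606 and 30936, and those of 8 endothelial and stellate cell markers 47029 and 66855 against 31311 and 54963. Both arrays labelled lipin were higher for 0 T and NK cell markers and lower for 1. The same counts were 1 and 0 for Kupffer cell and macrophage markers, and 2 and 0 for endothelial and stellate cell markers. Over all genes tested the shares were 17.3% higher and 16.0% lower. In whole liver, fewer cells of a type and less RNA per cell cannot be told apart.

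Ppara was the receptor with the largest difference, 5.0-fold above GFP in the arrays labelled lipin, but no receptor passed the test. Of the 17 probe sets, 16 were bright enough to test. With limma at an adjusted p under 0.05, 0 were called higher and 0 lower, as were 0.0% of all 13576 probe sets tested in either direction. At an unadjusted p under 0.05 there were 2, the Ppara probe set and 1 of Hnf4a, where 4.39% of all probe sets had such a p. In 4 of the 16 the arrays labelled lipin were both above the GFP arrays, against 17.1% of all probe sets tested, and these belonged to Ppara, Nr5a2, Hnf4a and Esrra. In 0 of the 16 both lay below, against 15.9% of all. The median log2 difference, labelled lipin minus GFP, was 0.18 over the 16 and 0.0038 over all probe sets tested. Because these genes were picked with earlier results known, the counts describe them and support nothing.

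**Figure D1:**
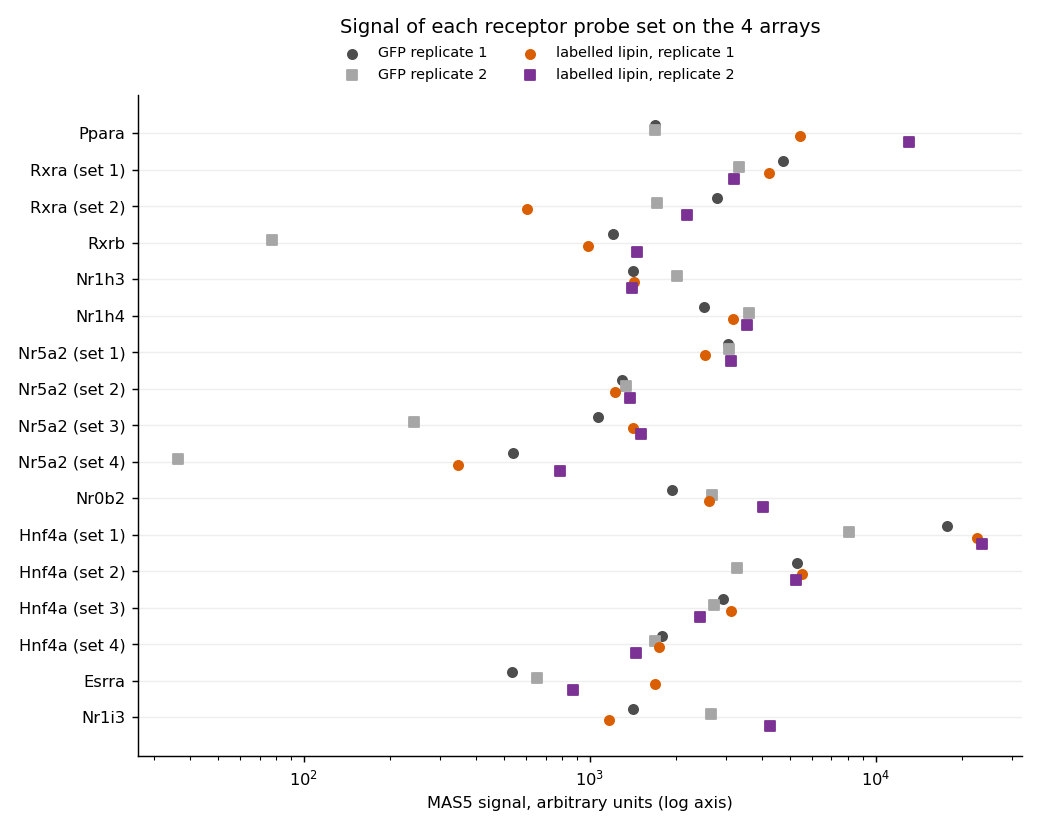
Deposited signal (horizontal log axis, arbitrary units) of the 17 receptor probe sets on the 4 arrays, 1 point per array; probe sets of a gene are numbered from the brightest by mean log2 signal. The Ppara points of the GFP arrays coincide near 1690 and both arrays labelled lipin lie above them, while GFP replicate 2 stands far to the left for Rxrb (77.4) and for Nr5a2 sets 3 (242) and 4 (36.4).

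Ppara (probe set 1449051_at) gave signals of 1688 (replicate 1) and 1695 (replicate 2) with GFP, against 5452 and 13121 on the arrays labelled lipin. The control signals lay within 0.0066 log2 units of each other, and both arrays labelled lipin were above them. Those arrays were themselves 1.27 log2 units apart. The log2 difference was 2.32 ± 0.44 (SE, n = 2 per group; limma adjusted p = 0.660), with a 95% interval of 1.38 to 3.26 that is not adjusted for the number of probe sets. Among all probe sets tested its p ranked 2 from the smallest and its difference 88 from the highest. The value was 1.69 without lipin replicate 2 and 2.96 without lipin replicate 1. Each of these fits left a single array in the lipin group and took the spread from the intensity trend. In the latter fit that array was the one labelled polyA RNA. Leaving out either GFP array gave 2.32 and 2.33. The signal of lipin replicate 1 was 3.22 times the mean of the controls, although its Lpin1 signal was not above theirs.

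The 250 bases before the Ppara start site in RefSeq (GRCm38.p6) are shown because no receptor differed more. They lie at chr15:85735526-85735775 on the plus strand, hold 76.4% G and C, and carry the GC box GGGCGG, the binding letters of Sp1, at 2 places in capitals.

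Ppara: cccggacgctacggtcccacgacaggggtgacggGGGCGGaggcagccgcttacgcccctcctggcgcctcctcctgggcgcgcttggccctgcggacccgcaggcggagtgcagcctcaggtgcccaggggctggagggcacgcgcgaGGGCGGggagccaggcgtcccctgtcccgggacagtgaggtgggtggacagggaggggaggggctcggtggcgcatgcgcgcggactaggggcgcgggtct

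A GC box was found, on either strand, in 7 of the 15 promoter windows that RefSeq holds for the 10 genes and in 32.7% of all 32851 windows of this length. The nuclear receptor core hexamer AGGTCA, the unit these receptors other than SHP read on DNA, was in 3 of the 15 windows and in 14.0% of all. Those windows belong to Rxra, Nr1h4 and Nr5a2, and Ppara has none. A direct repeat of that core hexamer with 1 base between, the arrangement read by PPAR alpha with RXR and by HNF4 alpha, was in 0 of the 15 windows and in 11 of all. The core hexamers are shown in capitals, as AGGTCA or, on the other strand, as TGACCT, with 12 bases on each side, at chr2:27709232-27709261 and chr2:27709193-27709222 for the second Rxra start site (plus strand), chr10:89506855-89506884 for Nr1h4 (minus strand) and chr1:136960495-136960524 for the first Nr5a2 start site (minus strand). Such a match is a string of letters, not a measured site.

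Rxra, 48 bases before the start: gggtggcaggaaAGGTCAgtcactctctgt

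Rxra, 87 bases before the start: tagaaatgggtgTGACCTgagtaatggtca

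Nr1h4, 214 bases before the start: ccgtgtggcattTGACCTccagccagtctt

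Nr5a2, 64 bases before the start: atggtttacagcAGGTCAtacatgctggaa

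Of the heterodimer partners, neither probe set of Rxra was higher in the arrays labelled lipin, and Rxrb was undecided because of 1 control array. On the brighter Rxra probe set the GFP signals were 4733 and 3321, against 4238 and 3200 on the arrays labelled lipin. The groups overlapped, and the log2 difference of -0.11 ± 0.39 had a 95% interval of -0.94 to 0.73 (limma adjusted p = 0.982). The dimmer Rxra probe set read 2796 and 1722 against 601 and 2191, with lipin replicate 1 alone far below the rest. Its log2 difference was -0.93 ± 0.63 (limma adjusted p = 0.962), and it was -0.0021 without lipin replicate 1 and -1.87 without lipin replicate 2. The 2 probe sets therefore disagree in size, and lipin replicate 1 decides the value of the dimmer one.

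Rxrb, the other retinoid X receptor of liver, read 1207 in GFP replicate 1 and 77.4 in GFP replicate 2, and 988 and 1466 in the arrays labelled lipin. GFP replicate 2 lay below the floor of 119.5 to which low signals were raised, and the other arrays were within a narrow range. The fitted log2 difference of 1.66 ± 1.07 (limma adjusted p = 0.962) became -0.0041 when GFP replicate 2 was left out and 3.33 when GFP replicate 1 was. The distance between the GFP arrays, 3.34 log2 units after the floor, was larger than the difference between the groups.

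Among the sterol and bile acid receptors the groups overlapped for Nr1h3, Nr1h4, Nr0b2 and 2 of the 3 tested probe sets of Nr5a2. Nr1h3, the oxysterol sensor LXR alpha, had GFP signals of 1417 and 2012, against 1424 and 1406 on the arrays labelled lipin. GFP replicate 2 was the high array and the other arrays lay close together, so the log2 difference of -0.26 ± 0.53 (limma adjusted p = 0.975) was -0.0029 without it. Its 95% interval ran from -1.39 to 0.87.

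Nr1h4, the bile acid sensor FXR, read 2512 and 3606 in the GFP arrays against 3158 and 3536. Both arrays labelled lipin lay between the controls, and the log2 difference was 0.15 ± 0.40 (95% interval -0.71 to 1.01; limma adjusted p = 0.977). Nr0b2, the repressor SHP that FXR induces, read 1931 and 2665 against 2620 and 4023, with lipin replicate 2 the highest and lipin replicate 1 just below the higher control. Its log2 difference was 0.52 ± 0.44 (95% interval -0.41 to 1.45; limma adjusted p = 0.962), and it stayed above 0, between 0.21 and 0.83, whichever array was left out.

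The Nr0b2 promoter is shown because FXR, LRH-1 and HNF4 alpha, all in this group, are known to act on it. Its 250 bases before the start, at chr4:133553126-133553375 on the plus strand of GRCm38.p6, hold AAGGCCA, a form of the extended core hexamer that LRH-1 and ERR alpha read as monomers, 200 bases before the start. There it runs into the E-box CACGTG, and both are in capitals as 1 block, with a GC box on the other strand (CCGCCC) as the second block. AAGGCCA was in 1 of the 15 windows and in 5.24% of all, the extended form AAGGTCA, which contains the core hexamer AGGTCA, in 1 of the 15 and in 4.08% of all, and the E-box in 2 of the 15 (Nr0b2 and Nr1i3) and in 6.02% of all.

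Nr0b2: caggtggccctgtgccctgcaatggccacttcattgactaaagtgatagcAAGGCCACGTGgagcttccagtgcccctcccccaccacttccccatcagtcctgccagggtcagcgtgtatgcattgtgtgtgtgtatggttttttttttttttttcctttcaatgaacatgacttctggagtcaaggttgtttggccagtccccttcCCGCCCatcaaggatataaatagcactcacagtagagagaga

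Nr5a2, which encodes LRH-1, an activator of bile acid synthesis genes, had 4 probe sets that fell into contrasting kinds. The brightest (1456521_at) had GFP signals of 3041 and 3069, against 2538 and 3124 on the arrays labelled lipin. The log2 difference was -0.12 ± 0.41 (limma adjusted p = 0.980). The next (1420410_at) read 1298 and 1338 against 1220 and 1377, which differ by -0.024 ± 0.57 on the log2 scale (limma adjusted p = 0.998). On both, all arrays lay close together, and the controls were 0.013 and 0.043 log2 units apart.

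The third Nr5a2 probe set (1449706_s_at) read 1068 and 242 in the GFP arrays against 1420 and 1516, with both arrays labelled lipin above the controls. Its log2 difference of 1.53 ± 0.83 (limma adjusted p = 0.962) became 0.46 when GFP replicate 2 was left out and 2.60 when GFP replicate 1 was. The fourth (1449707_at) read 540 and 36.4 against 346 and 784, was too dim to test, and differed by 1.04 after the floor. GFP replicate 2 was the lowest array on the dimmer sets and was level with the rest on the brighter ones.

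Hnf4a and Esrra, receptors that bind DNA without RXR, were higher in the arrays labelled lipin on 1 probe set each, but not beyond the test. HNF4 alpha maintains the hepatocyte program and had 4 probe sets. The brightest (1427001_s_at) had GFP signals of 17791 and 8054, against 22537 and 23579 on the arrays labelled lipin, which were both above the controls and 0.065 log2 units apart. Its log2 difference was 0.95 ± 0.37 (95% interval 0.15 to 1.74, not adjusted; limma adjusted p = 0.962), or 0.37 with GFP replicate 2 left out and 1.52 with GFP replicate 1 left out.

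The second Hnf4a probe set read 5317 and 3259 against 5504 and 5268. GFP replicate 2 alone was low, and the log2 difference of 0.37 ± 0.37 (limma adjusted p = 0.962) was 0.018 without it. The third read 2918 and 2726 against 3128 and 2429, and the fourth 1784 and 1690 against 1752 and 1454, with log2 differences of -0.033 ± 0.41 and -0.12 ± 0.51 and overlapping groups (limma adjusted p = 0.997 and 0.985). The mean over all 4 probe sets was 0.29.

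Esrra, whose protein works with PGC-1 alpha on mitochondrial genes, read 534 and 654 in the GFP arrays against 1693 and 871. Both arrays labelled lipin were above the controls, this time with lipin replicate 1 the higher, and they were 0.96 log2 units apart against 0.29 for the controls. The log2 difference was 1.04 ± 0.76 (95% interval -0.59 to 2.67; limma adjusted p = 0.962), or 0.56 with lipin replicate 1 left out and 1.52 with lipin replicate 2 left out.

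Nr1i3, the xenobiotic receptor CAR, had GFP signals of 1412 and 2660, against 1166 and 4254 on the arrays labelled lipin, which were thus the lowest and the highest of all. Its log2 difference of 0.20 ± 0.60 (95% interval -1.07 to 1.47; limma adjusted p = 0.978) was 1.13 without lipin replicate 1 and -0.73 without lipin replicate 2. The distance of 1.87 log2 units between the arrays labelled lipin was the largest in that group among the tested receptors, level with that of the dimmer Rxra probe set (1.87).

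**Figure D2:**
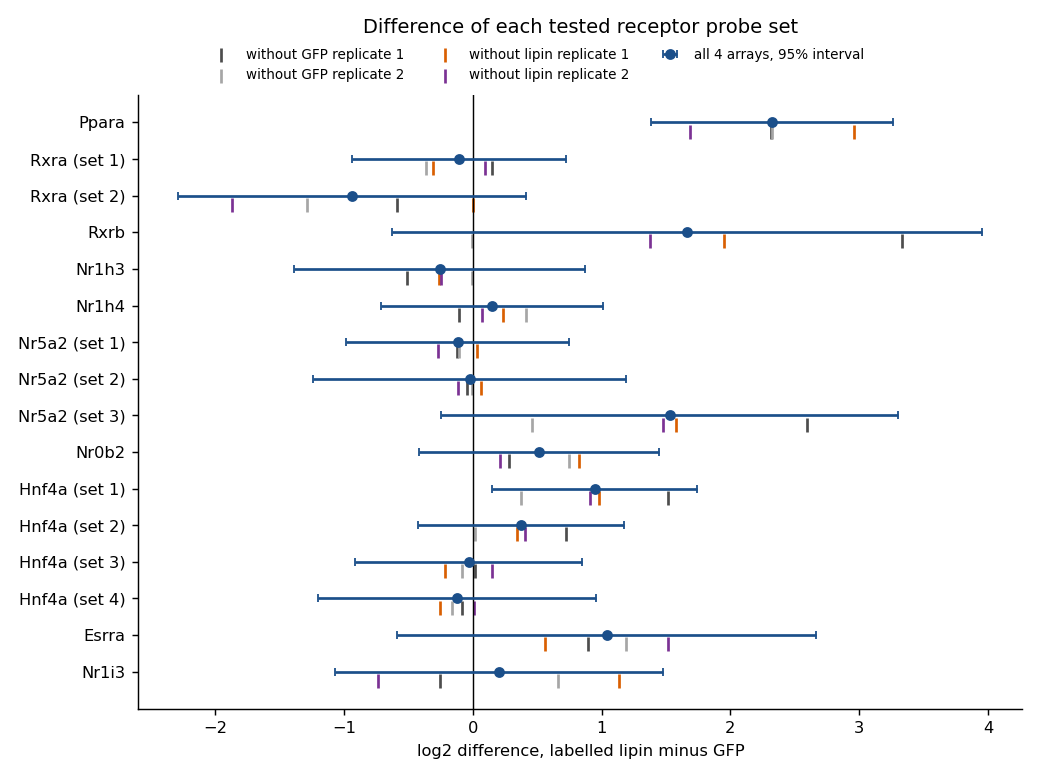
Log2 difference, labelled lipin minus GFP (horizontal axis), of the 16 tested receptor probe sets; circles and bars are the limma estimate and its 95% interval, not adjusted for the number of probe sets, and the ticks below are the estimates with 1 array left out. Only the intervals of Ppara (1.38 to 3.26) and Hnf4a set 1 (0.15 to 1.74) lie above 0, and the ticks of Rxrb run from -0.0041 to 3.33.

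Across the receptors, the arrays of a group often differed as much as the groups. In 2 of the 16 tested probe sets, those of Ppara and Esrra, the difference between groups was larger than the distance between the arrays of either group. Neither that count nor the counts below of arrays far apart were made over all probe sets, so they only describe these receptors. The median distance was 0.51 log2 units between the GFP arrays and 0.33 between the arrays labelled lipin, against 0.71 and 0.55 over all probe sets tested. The arrays labelled lipin were over 1 log2 unit apart in 3 tested probe sets, Ppara (1.27), the dimmer Rxra set (1.87) and Nr1i3 (1.87). The GFP arrays were over 1 log2 unit apart in 3 as well, Rxrb (3.34), Nr5a2 set 3 (2.14) and Hnf4a set 1 (1.14). In each of the latter 3, GFP replicate 2 was the low array. That array also had the highest 3' to 5' ratios, whose part in these values was not tested.

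Lipin replicate 2 had the highest signal in 8 of the 16 tested probe sets, against 21.0% of all probe sets tested. The lowest signal was spread evenly, with 4 of the 16 on each array. Without lipin replicate 1, lipin replicate 2 exceeded both GFP arrays in 9 of the 16 (56.2%), against 29.9% of all probe sets tested, and lay below both in 4, against 32.4% of all. Without GFP replicate 2 the counts were 6 above and 3 below, against 34.9% and 31.2% of all. Lipin replicate 2 is the sample labelled polyA RNA, and the part of that in these counts was not tested.

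**Figure D3:**
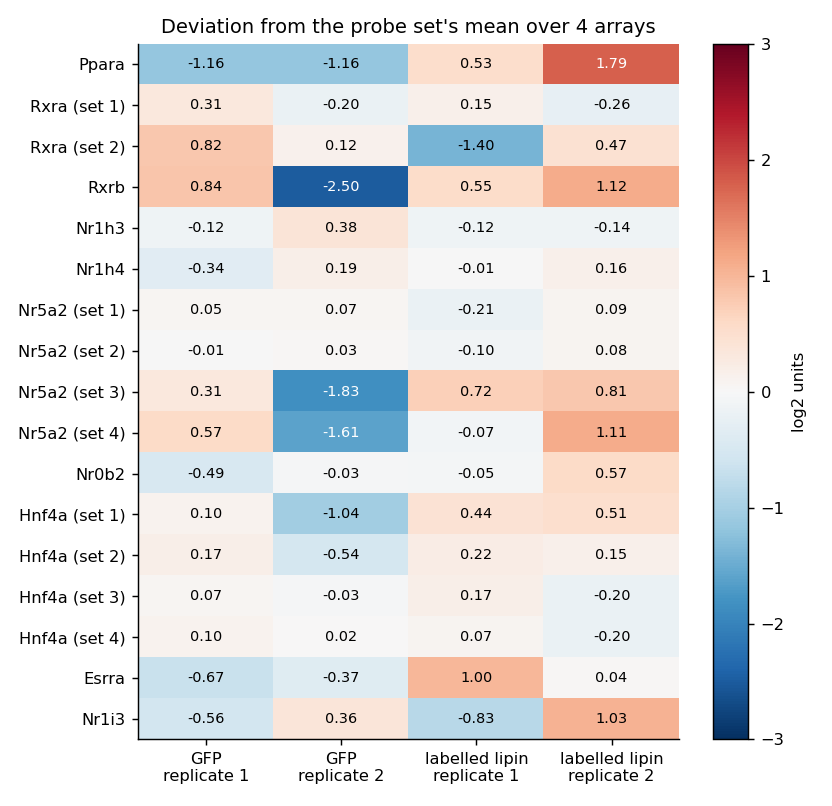
Deviation of each array (columns) from the mean of the 4 arrays for each of the 17 receptor probe sets (rows), in log2 units after the floor, in red above and blue below. Ppara is at -1.16 on both GFP arrays and at 0.53 and 1.79 on the arrays labelled lipin, and the darkest blue cells, Rxrb (-2.50), Nr5a2 set 3 (-1.83) and set 4 (-1.61), all stand in the column of GFP replicate 2.

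Known targets of the receptors give the other genes of these pathways, each gene read by its brightest tested probe set. No gene of any list was called by limma in either direction, as for the receptors. Over all 8493 genes tested, the median log2 difference was 0.0015, and both arrays labelled lipin were above the controls in 17.3% and below in 16.0%. Some genes stand in several lists, and a gene not mentioned in a list's count is not analysed here.

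Of 30 PPAR alpha targets 22 were tested, and 16 lay above 0 with a median log2 difference of 0.43, the highest median among these lists. In 10 both arrays labelled lipin were above the controls and in 3, Acot1, Acadm and Pex11a, both were below. The genes with the smallest p were Etfdh, an electron carrier that serves mitochondrial acyl-CoA dehydrogenases, Acadvl, the first enzyme of long-chain oxidation, and Cpt2 of the carnitine shuttle. Etfdh read 1233 and 411 in the GFP arrays against 3274 and 5096, Acadvl 5770 and 2888 against 10133 and 11723, and Cpt2 6828 and 1932 against 9319 and 11381. The log2 difference was 2.52 ± 0.59 for Etfdh (limma adjusted p = 0.804). GFP replicate 2 was the lowest array for each of these genes, and without it the list's median was 0.10 and the log2 differences of Etfdh, Acadvl and Cpt2 were 1.73, 0.92 and 0.59.

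Of 12 LXR targets all 12 were tested, with 7 above 0 and a median of 0.35. Both arrays labelled lipin were above the controls in 3 (Srebf1, Abcg5 and Abcg8) and below in 2 (Mylip and Pltp). Srebf1, the lipogenic transcription factor, read 17894 and 9950 against 28563 and 32896, and Abcg5, a subunit of the biliary sterol exporter, 1148 and 1484 against 2782 and 4542. The groups overlapped for the lipase Lpl, at 6650 and 2548 against 2938 and 2022. Its log2 difference of -0.76 ± 0.48 (limma adjusted p = 0.962) was -0.064 once GFP replicate 1 was left out. The median ran from -0.0091 without GFP replicate 2 to 0.56 without lipin replicate 1.

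Of 10 tested genes that FXR induces 9 were above 0, with a median of 0.24, which became 0.48 with GFP replicate 2 left out and 0.47 with lipin replicate 1 left out. The hepatocyte markers, whose part in this was not tested, had 7 of 8 above 0 and a median of 0.31. The list holds Nr0b2 itself, and 1 gene, Pltp, was below the controls on both arrays. The smallest p belonged to Fetub, a secreted fetuin (log2 difference 0.70 ± 0.39), Abcb11, the bile salt export pump (0.57 ± 0.33), and Slc27a5, which activates bile acids for conjugation (0.70 ± 0.43), each with a limma adjusted p of 0.962. Among them only Abcb11 was above the controls on both arrays labelled lipin, at 9250 and 10080 against 5861 and 7250. The values of the others rest on single arrays: leaving out GFP replicate 1 or lipin replicate 2 lowered Fetub to 0.23 or 0.28 and Slc27a5 to 0.085 or 0.16.

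Of 6 tested genes that LRH-1 activates or SHP restrains, 5 were above 0 and the median was 0.34, or -0.014 without lipin replicate 2. Both arrays labelled lipin were above the controls in 2, Abcg5 and Abcg8, and below in 1, Cyp8b1. Cyp8b1, the bile acid 12-hydroxylase and the gene below 0, read 13033 and 20284 in the GFP arrays against 9231 and 11065 (log2 difference -0.69 ± 0.33; limma adjusted p = 0.962). By smallest p it came after Abcg5 and before Scarb1, the HDL receptor (0.39 ± 0.37). With GFP replicate 2 left out Cyp8b1 was at -0.37, and with lipin replicate 2 left out Scarb1 was at 0.064.

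Of 11 tested CAR targets 3 were above 0 and 8 below, with a median of -0.10. Both arrays labelled lipin were above the controls in 0 of them and below in 1. That gene was Gadd45b, a stress-response gene, at 699 and 1120 against 439 and 391. Alas1, the first enzyme of heme synthesis, had the smallest p (0.63 ± 0.40), and Cyp3a11, the main drug-oxidising P450, differed by -0.36 ± 0.70. Both moved with the control arrays: with GFP replicate 2 left out Alas1 was at 0.16 and Cyp3a11 at 0.27, and with GFP replicate 1 left out they were at 1.10 and -0.99. Leaving out GFP replicate 2 gave a median of 0.079, and leaving out GFP replicate 1 one of -0.28.

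HNF4 alpha targets were divided: 8 of 14 tested were above 0, the median was 0.099, and both arrays labelled lipin were above the controls in 1, Apob, and below in 3. Those below were Apoa4, an apolipoprotein of triglyceride-rich particles (27925 and 30867 against 12108 and 10952), Mttp, which loads lipid onto apolipoprotein B (13753 and 12245 against 8776 and 7642), and Cyp8b1. Apoa4 had the smallest p of the list, with a log2 difference of -1.35 ± 0.31 (limma adjusted p = 0.804). It stayed between -1.42 and -1.28 whichever array was left out. The list's median was less steady. Leaving out GFP replicate 1 gave a median of -0.28 and leaving out GFP replicate 2 one of 0.47. It was -0.090 without lipin replicate 2, so arrays of either group can turn its sign.

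Of 10 tested ERR alpha targets 5 were above 0, with a median of 0.071 and 2 genes above (Mfn2 and Cox5b) and 2 below (Acadm and Cs) the controls on both arrays. Mfn2, a mitochondrial fusion protein, read 1083 and 1018 against 2148 and 2584, a log2 difference of 1.17 ± 0.52. Acadm, the medium-chain dehydrogenase and also a PPAR alpha target, read 29784 and 19205 against 18825 and 16307, a difference of -0.45 ± 0.33, or -0.13 with GFP replicate 1 left out. Vegfa, an angiogenic growth factor, read 547 and 1304 against 812 and 88.9, the last under the floor. Its difference of -1.44 ± 1.23 was -0.056 without that array, lipin replicate 2. The limma adjusted p was 0.962 for Mfn2, Acadm and Vegfa, and the median was -0.16 without lipin replicate 1.

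**Figure D4:**
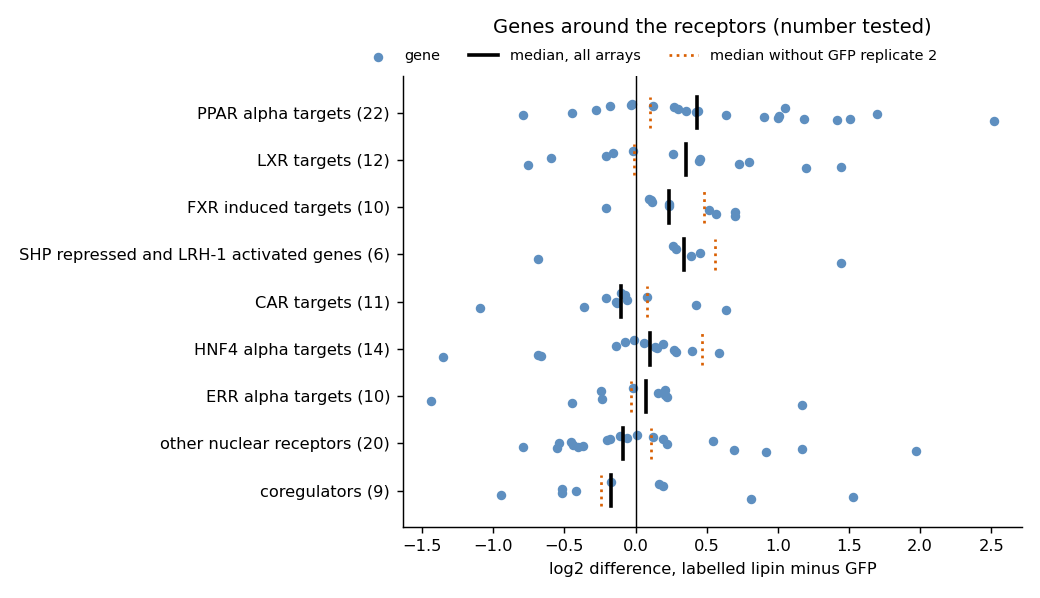
Log2 difference, labelled lipin minus GFP (horizontal axis), of the tested genes of each list around the receptors, 1 point per gene; black bars are medians over all 4 arrays and dotted bars medians without GFP replicate 2. The median of the 22 PPAR alpha targets drops from 0.43 to 0.10 without that array, while that of the 14 HNF4 alpha targets moves from 0.099 to 0.47.

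The other nuclear receptors were centred near 0. Of 38 genes 20 were tested, 9 of them above 0, with a median of -0.086 and a single gene above and a single gene below the controls on both arrays. The gene above was Nr1d2, the clock repressor REV-ERB beta, at 2796 and 2089 in the GFP arrays against 5229 and 3965 (log2 difference 0.91 ± 0.40; limma adjusted p = 0.962), and the gene below was Nr2f2. The orphan receptor Esrrg read 111 in GFP replicate 1, under the floor, and 1332 in GFP replicate 2, against 1331 and 1834, and Nr2f6 read 593 and 3650 against 2422 and 2341. Leaving out GFP replicate 1 gave a median of -0.53 (-0.12 over all genes) and leaving out GFP replicate 2 one of 0.11.

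Coactivators and corepressors did not share a direction either, with 4 of 9 tested above 0, a median of -0.17 (0.016 without GFP replicate 1, -0.40 without lipin replicate 2) and 2 genes above (Hdac3 and Ncoa6) and 2 below (Nrip1 and Ncoa3) the controls on both arrays. Hdac3, the deacetylase of the corepressor complex, read 1717 and 1348 against 2752 and 2582 (log2 difference 0.81 ± 0.47). Ncoa6, a coactivator, read 642 and 164 against 833 and 1053 (1.53 ± 1.09), and Nrip1, a corepressor, 865 and 1762 against 851 and 482 (-0.95 ± 0.76). With GFP replicate 2 left out Ncoa6 was at 0.55 and Nrip1 at -0.43. The limma adjusted p was 0.962 for Hdac3, Ncoa6 and Nrip1. Lpin1 itself is in this list, with a log2 difference of 0.19 ± 0.45 on its brighter probe set, which ran from -0.57 to 0.95 as lipin replicate 2 or lipin replicate 1 was left out.

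The genes whose pattern over the 4 arrays was most like that of Ppara were Rbms1, BC005624, Tnfsf4 and Sting1. Likeness was the Euclidean distance between log2 values, each centred on its own mean, over 8483 tested genes outside the members. For scale, the Ppara pattern has a length of 2.49 log2 units from its own mean. Rbms1, an RNA-binding protein, was nearest at a distance of 0.11 and read 278 and 295 in the GFP arrays against 858 and 2086. BC005624 followed at 0.49, Tnfsf4, the ligand of OX40 on T cells, at 0.53 and Sting1, an adaptor of the DNA-sensing pathway, at 0.61. Each of these genes also had its highest signal in lipin replicate 2 and its controls close together, which follows from choosing by pattern. None passed limma (adjusted p = 0.962 for each). The GFP signals of Rbms1, BC005624 (245 and 206) and Tnfsf4 (130 and 161) lay below 373, the minimum mean for testing. Those genes were therefore tested only because their signals on the arrays labelled lipin were high. A choice of the nearest among so many genes over 4 arrays describes these arrays only.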

How the data were processed

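The deposited file holds 1 linear signal, an intensity, for each probe set on each array. The authors made these values with MAS5 per the submitters' processing notes, whose version and scaling target were not stated. Because the mean signal after trimming 2% at each end was 1500.7 to 1500.8 on every array, no further scaling was applied. MAS5 subtracts mismatch probes, which leaves dim probe sets noisy. Signals below 119.5, the 20th percentile, were raised to it and log2 was taken. The 40th percentile of the mean (signal 373) was the minimum for testing, which left 13576 probe sets. The tests came from limma (version 3.58.1, under R 4.3.3), with lmFit and then eBayes with an intensity trend. They are two-sided, p-values were adjusted by Benjamini-Hochberg across the whole table, and the threshold was 0.05. The fit had 2 residual and 12.7 prior degrees of freedom, so each SE draws mostly on the spread of other probe sets of like signal. It was tested on simulated data with known changes, and the outcome of that test is not given here. Fold changes are on the floored log2 scale. The number of arrays limits the precision.

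Symbols came from the platform annotation (20380 probe sets with 1 symbol, 691 with several, 1555 unlisted) and promoter sequences from RefSeq (GRCm38.p6), where all 10 genes matched. The members, gene lists and settings were chosen with earlier results of these data known. Named are all member probe sets, up to 3 genes per list by smallest p, and the 4 genes nearest to Ppara in pattern; other genes were named after their values were seen. Alternatives changed the normalization, the floor, the filter and the eBayes trend, added the replicate number as a block, averaged the probe sets of each gene and left out each array. Counts of groups that do not overlap, without each array, were added after seeing the data.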

Additional observations from a re-analysis of the deposited data

How the results depend on the processing

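The count of 0 called probe sets held under quantile normalization, median centring, both other floors, both other filters, eBayes without a trend and averaging the probe sets of each gene. It was 0 to 13 with 1 array left out (13 without lipin replicate 1, 2 without GFP replicate 2, 3 without lipin replicate 2). Among the receptors it was 0 to 1, and the call was Ppara without lipin replicate 1, where its log2 difference was 2.96 (1.69 without lipin replicate 2). With the replicate block 52 probe sets were called, 1 of them Ppara at 2.32 (limma adjusted p = 8.67e-06). The numbers do not pair the arrays by the labels, and the deviations of same-numbered arrays correlated at 0.028. With that block and without either lipin array the prior degrees of freedom were infinite.

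Of 194 recomputed differences of receptor probe sets, 178 kept direction and side of the threshold, 2 passed it, both of Ppara, and 14 changed sign, all of small differences, of Nr1i3 or of Rxrb. With 1 array left out the ranges were -0.36 to 0.15 for the brighter Rxra set, -0.0041 to 3.33 for Rxrb, -0.11 to 0.41 for Nr1h4, -0.27 to 0.033 and -0.11 to 0.063 for the brightest and second Nr5a2 sets, -0.22 to 0.15 and -0.26 to 0.013 for Hnf4a sets numbered 3 and 4, and -0.73 to 1.13 for Nr1i3. The mean over the 4 Nr5a2 probe sets was 0.61 and is counted as a change of sign of the brightest set. That mean takes in sets 3 (1.53) and 4 (1.04), so the brightest set itself did not turn there. The second set turned with quantile normalization (0.043) and median centring (0.0054). Why the other differences changed sign was not tested. Rxrb has no value under the filter at the 60th percentile, and genes with 1 probe set have no mean over probe sets. Without detection calls, the background under each signal was not assessed.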
